A study of Saccharomyces cerevisiae with 18 samples.

Results

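The translation factor genes of baker's yeast (Saccharomyces cerevisiae) were followed through 18 RNA-Seq libraries. A set of 38 genes for initiation, elongation and termination factors was matched by gene name to 6713 loci of the count table, and all 38 passed the filter on low counts that left 5766 loci for testing. Every strain was the haploid S96 background with its own YRR1 gene deleted, so that the allele under study came from a plasmid under the gene's own promoter and terminator. YRR1 encodes a zinc finger transcription factor of multidrug resistance. Yrr1IE is the S96 protein with the I775E change, Yrr1Y is the allele of the strain YJM789, and Yrr1S is the S96 allele. Each allele was sampled in glycerol medium (3% glycerol after a wash, 10 h), in rich glucose medium (YPD) with 0.25 µg/ml of the DNA-damaging agent 4-nitroquinoline 1-oxide (4NQO) for 2.5 h, and in YPD alone for 2.5 h. There were 2 libraries for each of the 9 conditions, from duplicated cultures. In glycerol against YPD, the carbon source, the time and the wash cannot be told apart. Each culture was divided, with 1 part given 4NQO and the other kept without it or washed into glycerol. The libraries that came from 1 culture are not named.

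Total counts were 1475372 to 2826771 per library, and correlations of log2 CPM (a gene's counts scaled to a common library size) between libraries of 1 condition were 0.958 to 0.983. SNF1, which encodes the yeast AMP-activated kinase that relieves glucose repression, had 0 to 2 counts in the 6 Yrr1IE libraries, against 179 to 297 counts in the 12 libraries of the other alleles, so in every comparison below the Yrr1IE protein and the near absence of SNF1 counts cannot be told apart. YRR1 itself had 89 to 199 counts with Yrr1IE, 138 to 425 with Yrr1Y and 235 to 570 with Yrr1S. All 7 MATa markers were detected, at 682 to 10529 counts summed, against 105 to 264 for the 4 MATalpha markers (SAG1 94 to 199, STE3 2 to 74). Of the MATa markers 6 of 7 were lower in glycerol than in YPD with each allele, and 6 of 7 were higher with Yrr1IE than with Yrr1S in glycerol, and their part in the results was not tested.

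Translation begins when a cap-binding complex and the poly(A)-binding protein prepare an mRNA, and a small ribosomal subunit carrying the initiator tRNA, bound to eIF2 and assisted by eIF1, eIF1A, eIF3 and eIF5, scans to the start codon. eIF5B then joins the large subunit, the elongation factors eEF1A, eEF2 and the fungal eEF3 drive each step along the mRNA, and eRF1 with eRF3 releases the finished chain. In yeast many of these factors are encoded by gene pairs, and their mRNAs are among the most abundant of a growing cell.

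Several of the pairs are so alike that reads can be shared between copies, so the sequences bear on what the counts can tell. The first 60 coding bases of both eEF3 genes (RefSeq, build R64; YEF3 at chrXII:636780-636839 and HEF3 at chrXIV:606319-606378, plus strand for both) are shown because the main result rests on telling these copies apart, with the bases that differ at the same position in capitals:
YEF3: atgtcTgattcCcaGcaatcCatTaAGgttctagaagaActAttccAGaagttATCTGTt
HEF3: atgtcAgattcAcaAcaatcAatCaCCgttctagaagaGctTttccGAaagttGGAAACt
Of these 60 positions 17 differed. Over the whole coding sequence of 3135 bases each, YEF3 and HEF3 were 74.6% identical in bases and 83.8% in amino acids, and none of the 3061 windows of 75 bases in either gene occurred in the other.

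The copies of the eEF1A gene stand at the other end (TEF1 at chrXVI:700594-700653 and TEF2 at chrII:477671-477730, both on the plus strand), with no base that differs in the same stretch:
TEF1: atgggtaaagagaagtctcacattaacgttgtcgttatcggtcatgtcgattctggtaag
TEF2: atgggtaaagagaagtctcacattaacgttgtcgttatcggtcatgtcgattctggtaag
TEF1 and TEF2 differed at 2 of 1377 coding bases, TIF1 and TIF2 at 6 of 1188, and EFT1 and EFT2 at 4 of 2529, and within each of these pairs the proteins were identical. Of the 75-base windows, 88.7% were shared by TEF1 and TEF2, 79.2% by TIF1 and TIF2, and 87.8% by EFT1 and EFT2. The counts were made with Rsubread at default settings, and how reads that match both copies were treated is not spelled out, so single values for these 6 genes are uncertain and each pair is also given summed. TEF4 and CAM1 (69% base identity) and TIF4631 and TIF4632 (59.8%) shared no 75-base window.

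The 38 genes together took 0.732% and 0.686% of the counts of the Yrr1IE glycerol libraries, 1.27% and 1.25% with Yrr1Y, and 1.25% and 1.08% with Yrr1S. In 4NQO their share was 2.49% in both Yrr1IE libraries, 2.48% and 2.51% with Yrr1Y, and 2.40% and 2.44% with Yrr1S. In YPD it was 2.96% and 3.15% with Yrr1IE, 3.36% and 3.23% with Yrr1Y, and 3.45% and 3.55% with Yrr1S. The shares in the 3 media did not overlap, and glycerol was lowest with each allele. The 95% Wilson interval of any of these shares was at most 0.026 percentage points to either side, which covers counting error only.

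**Figure D1:**
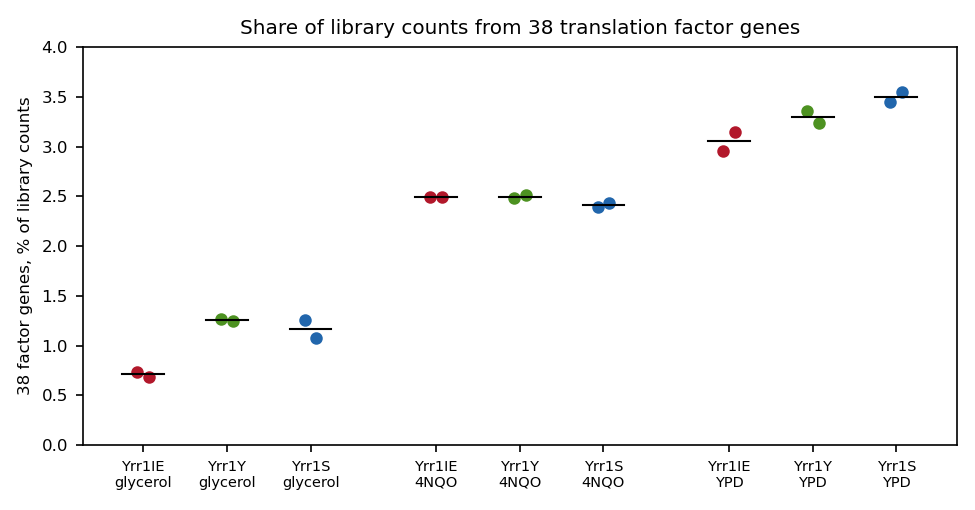
Percent of each library's counts that came from the 38 factor genes (vertical axis) in the 9 conditions, glycerol left, 4NQO middle and YPD right, and within a medium Yrr1IE, Yrr1Y and Yrr1S. Points are libraries (2 per condition) and lines are means; the 6 glycerol libraries lie between 0.686% and 1.27%, below the 4NQO libraries (2.40% to 2.51%) and the YPD libraries (2.96% to 3.55%).

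Levels between genes are compared in FPKM, fragments scaled to gene length and library size, as deposited. Across the 6 YPD libraries the medians were highest for YEF3 (3089.9 FPKM, range 2563 to 3256), EFB1 (2733 FPKM), TEF4 (2563 FPKM), TEF2 (2083 FPKM), TEF1 (1672 FPKM) and STM1 (1584 FPKM). The ranges of YEF3, EFB1 and TEF4 overlapped, and the order of these genes differed between libraries. Those of TEF4 and TEF2 also overlapped, but TEF4 was above TEF2 in each YPD library. At the low end were GCD6 (52.2 FPKM), GCD2 (42.7 FPKM), TIF4632 (22.4 FPKM) and HEF3 (2.4 FPKM). The genes of eIF2B, the exchange factor that recharges eIF2 with GTP, lay at 42.7 to 121 FPKM, below those of eIF2 itself at 199 to 314 FPKM.

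In glycerol nearly the whole set was lower than in YPD. Of the 38 genes, 34 were lower and 2 higher with Yrr1IE, against 32.3% lower and 33.2% higher among all 5766 loci. With Yrr1Y 36 were lower and 1 higher, against 27% and 28.5% of all loci, and with Yrr1S 36 were lower and 1 higher, against 28.6% and 29.1%. The median log2 fold change of the 38 genes was -1.74 with Yrr1IE, -1.27 with Yrr1Y and -1.55 with Yrr1S, with medians of all loci at 0.03, 0.04 and 0.04. A gene counts as higher or lower here at an adjusted p under 0.05 in edgeR's quasi-likelihood test with Benjamini-Hochberg adjustment over all loci of the comparison, with no threshold on fold. These are relative levels, and a change in total RNA per cell was not measured. The same 34 genes were lower with each allele, and HEF3 was higher with each. The share of all loci that was lower with each allele was not counted.

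The set was also lower in 4NQO than in YPD, by less. With Yrr1IE 24 genes were lower and 0 higher (13% and 12.9% of all loci), with Yrr1Y 20 lower and 1 higher (9.85% and 10.3%), and with Yrr1S 34 lower and 1 higher (15.3% and 15.9%). The medians of the 38 log2 fold changes were -0.54, -0.49 and -0.69 in the same order of alleles. Beside the 0 higher with Yrr1IE by edgeR, DESeq2 also called none higher. In all, 18 genes were lower in all 6 responses to a medium, and the share of all loci lower in all 6 was not counted. The difference of the 4NQO response between alleles was tested for every gene and called none: 0 of 38 for Yrr1IE minus Yrr1S (5.06% of all loci; 8 genes at an unadjusted p under 0.05 in edgeR, and 1, EFB1, called by DESeq2) and 0 of 38 for Yrr1Y minus Yrr1S (0.867% of all loci; 6 at an unadjusted p under 0.05, none by DESeq2).

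**Figure D2:**
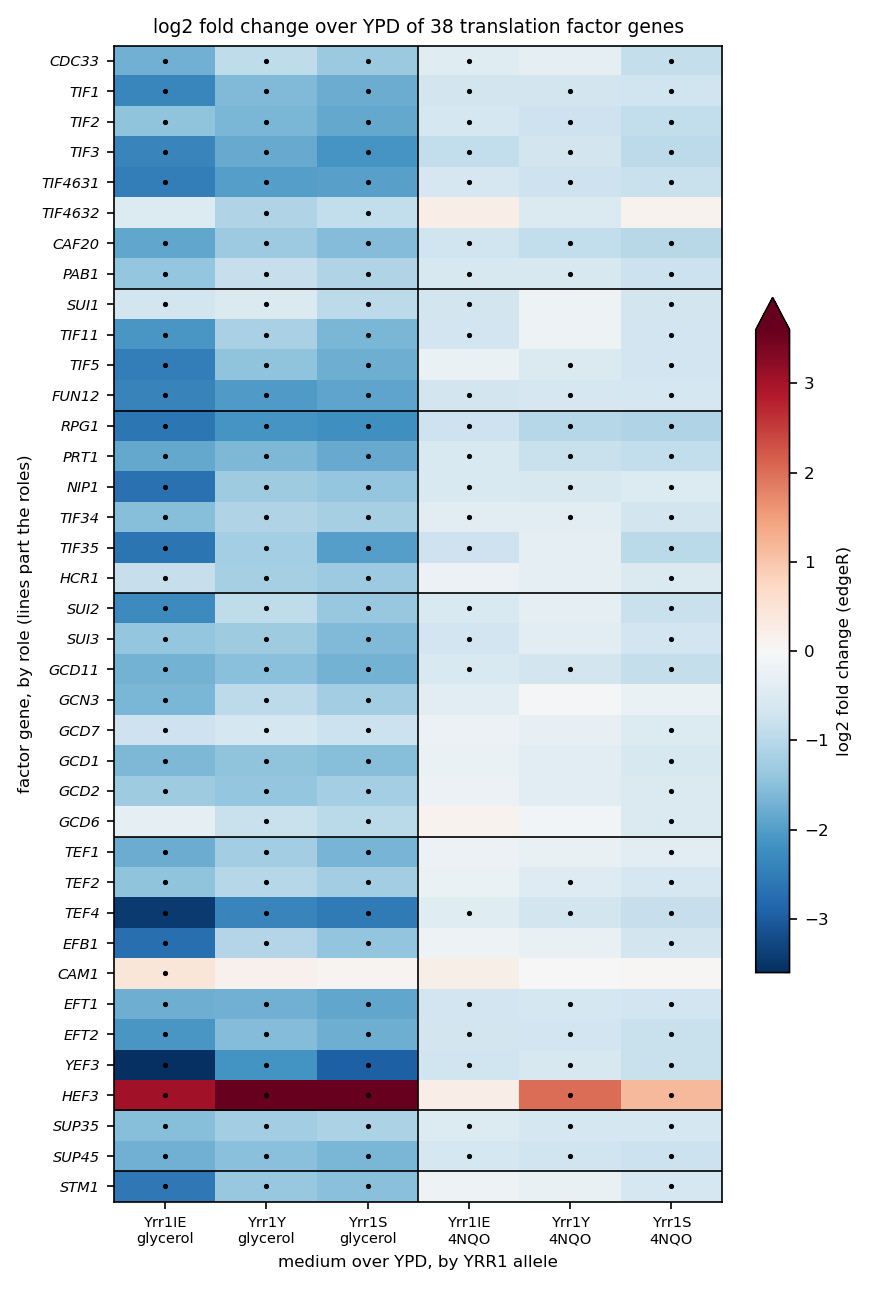
log2 fold change over YPD (colour; HEF3 in glycerol with Yrr1Y and Yrr1S, at 6.21 and 5.79, lies beyond the scale) of the 38 genes, in rows by role, in glycerol (left) and 4NQO (right) with each allele. Dots mark an adjusted p under 0.05; in glycerol 34, 36 and 36 genes are lower with Yrr1IE, Yrr1Y and Yrr1S, and HEF3 and CAM1 stand apart from the other rows.

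Glycerol was also compared with 4NQO, since the set was lower in both. With Yrr1IE 35 genes were lower in glycerol and 1 higher, against 30.4% and 28.1% of all loci. With Yrr1Y 32 were lower and 1 higher, against 23.9% and 24.9%, and with Yrr1S 34 were lower and 1 higher, against 23.3% and 21.9%. The gene that was higher was HEF3 with each allele, and the largest falls were those of TEF4 and YEF3, at -3.00 and -2.88 with Yrr1IE, -1.71 and -1.57 with Yrr1Y, and -1.71 and -2.15 with Yrr1S on the log2 scale. Glycerol over YPD and glycerol over 4NQO share the glycerol libraries.

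Among the elongation factors the eEF3 pair moved in opposite directions. eEF3 is an ATPase that fungi need for elongation beside eEF1A and eEF2, YEF3 (YLR249W) is its main gene, and HEF3 (YNL014W) encodes another form. In glycerol HEF3 had 113 and 87.5 CPM with Yrr1IE, 359 and 413 with Yrr1Y, and 461 and 448 with Yrr1S. In 4NQO HEF3 had 12.1 and 16.9 CPM with Yrr1IE, 20.9 and 20.7 with Yrr1Y, and 19.2 and 17.3 with Yrr1S. In YPD HEF3 had 11.1 and 13.1 CPM with Yrr1IE, 2.9 and 7.35 with Yrr1Y, and 6.98 and 9.09 with Yrr1S. Every glycerol library was above every library of the other media, and within glycerol the Yrr1IE libraries were below the other 4.

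Over YPD, HEF3 rose 8.17-fold in glycerol with Yrr1IE, 74.1-fold with Yrr1Y and 55.5-fold with Yrr1S. The log2 fold changes were 3.03 ± 0.22 with Yrr1IE, 6.21 ± 0.25 with Yrr1Y and 5.79 ± 0.22 with Yrr1S (SE, 2 libraries a condition; adjusted p from edgeR at most 4.80e-13). In 4NQO it rose with Yrr1Y (log2 fold change 2.0 ± 0.34) and Yrr1S (1.15 ± 0.29), and with Yrr1IE its change of 0.24 ± 0.30 did not pass the test (adjusted p = 0.6). The YPD values rest on 5 to 33 counts a library, so the size of these folds is less certain than their direction.

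YEF3 went the other way. In glycerol YEF3 had 881 and 658 CPM with Yrr1IE, 2301 and 2199.6 with Yrr1Y, and 1701 and 1099 with Yrr1S. In 4NQO YEF3 had 5820.2 and 5471 CPM with Yrr1IE, 6456 and 6909 with Yrr1Y, and 6249 and 6182 with Yrr1S. In YPD YEF3 had 8218 and 10320.0 CPM with Yrr1IE, 10481 and 9603 with Yrr1Y, and 10166 and 11404 with Yrr1S. The media did not overlap, with glycerol lowest and YPD highest, and in glycerol the alleles did not overlap either. The log2 fold changes in glycerol were -3.59 ± 0.17 with Yrr1IE, -2.16 ± 0.16 with Yrr1Y and -2.95 ± 0.16 with Yrr1S. Those in 4NQO were -0.72 ± 0.15 with Yrr1IE, -0.59 ± 0.15 with Yrr1Y and -0.80 ± 0.15 with Yrr1S. The 4NQO call with Yrr1Y was lost in some alternative processing.

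Because YEF3 and HEF3 have coding sequences of equal length, the share of HEF3 in the counts of both is also its share per length. It was 11.4% and 11.7% with Yrr1IE in glycerol (95% exact binomial intervals 9.78% to 13.1% and 10.1% to 13.5%), 13.5% and 15.8% with Yrr1Y (12.7% to 14.3% and 14.9% to 16.7%), and 21.3% and 29.0% with Yrr1S (20.2% to 22.5% and 27.5% to 30.5%). These intervals cover counting error only, and those of the 2 Yrr1S libraries did not overlap. In 4NQO the share of HEF3 was 0.208% to 0.322%, and in YPD 0.0277% to 0.135%, over 6 libraries each. YEF3 therefore stayed the more abundant copy in each library, and the sum of both genes was lower in glycerol, with log2 fold changes of -3.46 ± 0.16 with Yrr1IE, -2.04 ± 0.15 with Yrr1Y and -2.66 ± 0.15 with Yrr1S.

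**Figure D3:**
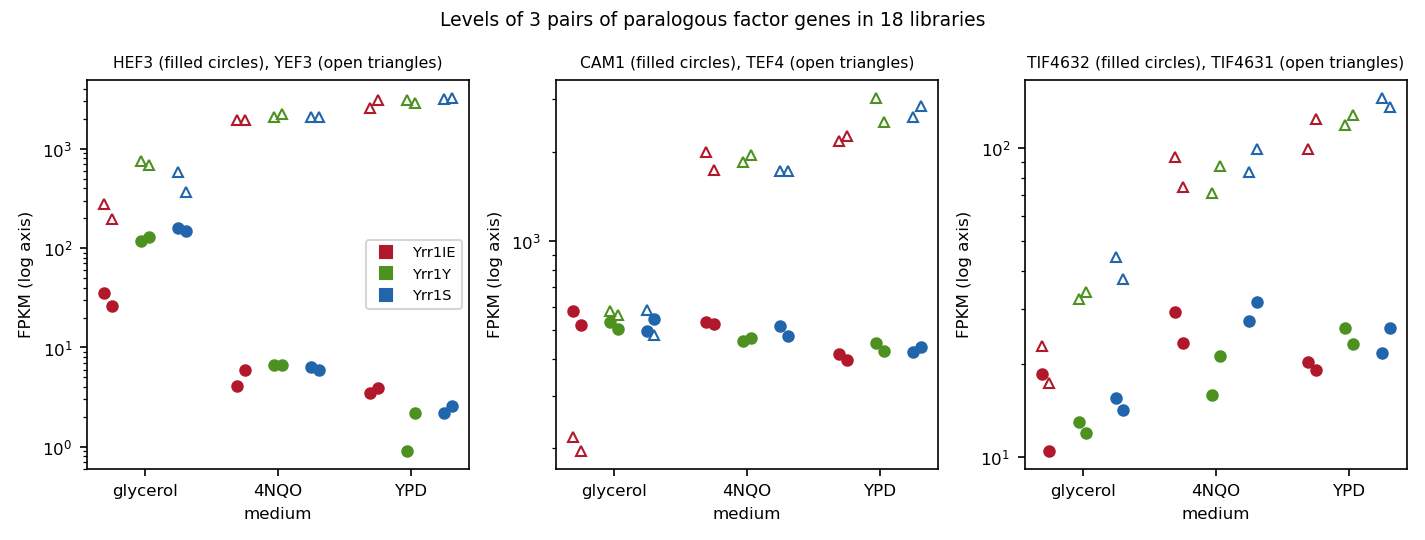
FPKM on a log axis in all 18 libraries for HEF3 with YEF3, CAM1 with TEF4, and TIF4632 with TIF4631, with media along the horizontal axis (glycerol, 4NQO, YPD) and Yrr1IE, Yrr1Y and Yrr1S in red, green and blue from left to right within a medium. Filled circles are the first gene named in a panel and open triangles the second; HEF3 is highest in glycerol where YEF3 is lowest, and CAM1 stays within a narrow band (396 to 581 FPKM) while TEF4 falls.

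The eEF1B complex, which reloads eEF1A with GTP, showed a further contrast between paralogues. Its gamma subunit is encoded by TEF4 (YKL081W) and CAM1 (YPL048W). In glycerol TEF4 had 277 and 256 CPM with Yrr1IE, 707 and 708 with Yrr1Y, and 670.5 and 571 with Yrr1S. In 4NQO TEF4 had 2329 and 1917 CPM with Yrr1IE, 2262 and 2369 with Yrr1Y, and 2064 and 2003 with Yrr1S. In YPD TEF4 had 2743 and 3006 CPM with Yrr1IE, 4045 and 3289 with Yrr1Y, and 3322 and 3936 with Yrr1S. Libraries in glycerol were below all others, and those of Yrr1IE were lowest. For CAM1 the picture was another. In glycerol CAM1 had 743 and 689 CPM with Yrr1IE, 653 and 641 with Yrr1Y, and 576 and 649.8 with Yrr1S. In 4NQO CAM1 had 632 and 585 CPM with Yrr1IE, 566 and 579 with Yrr1Y, and 621 and 559 with Yrr1S. In YPD CAM1 had 529 and 531 CPM with Yrr1IE, 606 and 559 with Yrr1Y, and 543 and 612 with Yrr1S. Media overlapped, and all 18 libraries lay between 529 and 743 CPM. The log2 fold changes of TEF4 in glycerol were -3.43 ± 0.14 with Yrr1IE, -2.37 ± 0.13 with Yrr1Y and -2.55 ± 0.13 with Yrr1S, and those of CAM1 were 0.43 ± 0.12 with Yrr1IE, 0.15 ± 0.12 with Yrr1Y and 0.09 ± 0.12 with Yrr1S, of which only the rise with Yrr1IE passed the test (adjusted p = 0.002, edgeR).

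CAM1 and HEF3 were the only members called lower in none of the 6 responses. In FPKM, TEF4 was 218 and 195 and CAM1 581 and 521 with Yrr1IE in glycerol, so that CAM1 was the higher copy there, while in YPD TEF4 was 2165 to 3041 and CAM1 396 to 452 over the 6 libraries. The difference between the copies was not itself tested.

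The largest falls in glycerol over YPD, as log2 fold changes, were with Yrr1IE those of YEF3 (-3.59), TEF4 (-3.43), EFB1 (-2.73), NIP1 (-2.67), TIF35 (-2.63), RPG1 (-2.61), STM1 (-2.58), TIF4631 (-2.50), TIF5 (-2.48) and FUN12 (-2.41). With Yrr1Y the largest falls were those of TEF4 (-2.37), YEF3 (-2.16), RPG1 (-2.13), FUN12 (-2.05), TIF4631 (-1.98), TIF3 (-1.81), EFT1 (-1.74), TIF2 (-1.63), PRT1 (-1.61) and TIF1 (-1.59). With Yrr1S they were those of YEF3 (-2.95), TEF4 (-2.55), RPG1 (-2.21), TIF3 (-2.13), TIF35 (-1.99), TIF4631 (-1.97), FUN12 (-1.90), EFT1 (-1.86), TIF2 (-1.85) and PRT1 (-1.82). TEF4 and YEF3 led each list, and none of the others named came from eIF2, eIF2B or termination.

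In 4NQO over YPD the largest falls with Yrr1IE were those of TIF3 (-0.89), RPG1 (-0.76), TIF35 (-0.73), CAF20 (-0.73), YEF3 (-0.72), SUI3 (-0.69), EFT1 (-0.68), TIF11 (-0.68), EFT2 (-0.66) and FUN12 (-0.66). For Yrr1Y in 4NQO they were those of RPG1 (-1.04), CAF20 (-0.89), PRT1 (-0.80), TIF2 (-0.75), TIF4631 (-0.74), SUP45 (-0.73), EFT2 (-0.68), GCD11 (-0.67), TEF4 (-0.66) and TIF3 (-0.66). For Yrr1S in 4NQO they were those of RPG1 (-1.07), CAF20 (-0.99), TIF35 (-0.98), TIF3 (-0.94), TIF2 (-0.90), PRT1 (-0.87), GCD11 (-0.86), CDC33 (-0.86), TEF4 (-0.84) and SUI2 (-0.81). RPG1, the gene of eIF3a, was first with Yrr1Y and Yrr1S, and TIF3, the gene of eIF4B, with Yrr1IE. The FUN12 value with Yrr1IE rested on single libraries, at -0.41 without S11 and -1.07 without S12. Its call was lost in some alternative, as were those of CAF20 and TIF11 with Yrr1IE and of CAF20 with Yrr1Y.

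Of the 9 elongation genes, 7 were lower in glycerol with each allele, and in 4NQO 4, 5 and 7 were lower with Yrr1IE, Yrr1Y and Yrr1S. EFB1 encodes the subunit of eEF1B that exchanges the nucleotide on eEF1A. In glycerol EFB1 had 241 and 283 CPM with Yrr1IE, 864 and 822 with Yrr1Y, and 795 and 713 with Yrr1S. In 4NQO EFB1 had 1450.2 and 1589.9 CPM with Yrr1IE, 1552 and 1340.0 with Yrr1Y, and 1319 and 1257 with Yrr1S. In YPD EFB1 had 1771 and 1708 CPM with Yrr1IE, 1735 and 1753 with Yrr1Y, and 1980.1 and 2079.5 with Yrr1S. The media did not overlap, and the Yrr1IE libraries lay far below the other glycerol libraries. The log2 fold changes of EFB1 in glycerol were -2.73 ± 0.13 with Yrr1IE, -1.05 ± 0.12 with Yrr1Y and -1.43 ± 0.12 with Yrr1S.

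TEF1 and TEF2 encode eEF1A, which brings aminoacyl-tRNA to the ribosome. In glycerol TEF1 had 681 and 705 CPM with Yrr1IE, 1025 and 1005 with Yrr1Y, and 869.9 and 718 with Yrr1S. In 4NQO TEF1 had 2084 and 2044 CPM with Yrr1IE, 2032 and 2028 with Yrr1Y, and 1902 and 1912 with Yrr1S. In YPD TEF1 had 2327 and 2441 CPM with Yrr1IE, 2404 and 2458 with Yrr1Y, and 2397 and 2708 with Yrr1S. For TEF1 the glycerol libraries were about at a level of 681 to 1025 CPM, and no other library was under 1902 CPM. In glycerol TEF2 had 942 and 943 CPM with Yrr1IE, 1415 and 1576 with Yrr1Y, and 1352 and 1297 with Yrr1S. In 4NQO TEF2 had 2220.3 and 2112 CPM with Yrr1IE, 2212 and 2268 with Yrr1Y, and 2109 and 2019 with Yrr1S. In YPD TEF2 had 2496 and 2628 CPM with Yrr1IE, 3065 and 3078 with Yrr1Y, and 2961 and 3341 with Yrr1S. TEF2 also separated the media, and in glycerol its Yrr1IE libraries were lowest. The sum of TEF1 and TEF2 was lower in glycerol, with log2 fold changes of -1.63 ± 0.11 with Yrr1IE, -1.24 ± 0.11 with Yrr1Y and -1.55 ± 0.11 with Yrr1S.

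EFT1 and EFT2 encode eEF2, the GTPase that moves the ribosome by a codon. In glycerol EFT1 had 239 and 198 CPM with Yrr1IE, 221 and 227 with Yrr1Y, and 225 and 207 with Yrr1S. In 4NQO EFT1 had 489 and 427 CPM with Yrr1IE, 479 and 494 with Yrr1Y, and 476 and 496 with Yrr1S. In YPD EFT1 had 649 and 817 CPM with Yrr1IE, 825 and 674 with Yrr1Y, and 712 and 853 with Yrr1S. The alleles overlapped in glycerol for EFT1. In glycerol EFT2 had 283 and 259 CPM with Yrr1IE, 418 and 432 with Yrr1Y, and 371 and 402 with Yrr1S. In 4NQO EFT2 had 747 and 709 CPM with Yrr1IE, 754 and 800.1 with Yrr1Y, and 763 and 744 with Yrr1S. In YPD EFT2 had 1019 and 1282 CPM with Yrr1IE, 1351 and 1146 with Yrr1Y, and 1234 and 1398 with Yrr1S. For EFT2 the media did not overlap, and in glycerol the Yrr1IE libraries were below the other 4. Summed over both copies, eEF2 mRNA was lower in glycerol with log2 fold changes of -1.98 ± 0.14 with Yrr1IE, -1.73 ± 0.13 with Yrr1Y and -1.92 ± 0.13 with Yrr1S.

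Of the 8 genes of eIF4F, its partners and poly(A) binding, 7, 8 and 8 were lower in glycerol with Yrr1IE, Yrr1Y and Yrr1S, and 7, 6 and 7 in 4NQO. TIF3 encodes eIF4B, which stimulates the helicase eIF4A. In glycerol TIF3 had 75 and 125 CPM with Yrr1IE, 153 and 150.3 with Yrr1Y, and 165 and 121 with Yrr1S. In 4NQO TIF3 had 289.8 and 276 CPM with Yrr1IE, 335 and 341 with Yrr1Y, and 315 and 339 with Yrr1S. In YPD TIF3 had 495 and 551 CPM with Yrr1IE, 517 and 549 with Yrr1Y, and 563 and 689.9 with Yrr1S. The media did not overlap for TIF3, while in glycerol the alleles did. Its log2 fold changes were -2.36 ± 0.17 with Yrr1IE, -1.81 ± 0.16 with Yrr1Y and -2.13 ± 0.16 with Yrr1S in glycerol and -0.89 ± 0.16 with Yrr1IE, -0.66 ± 0.16 with Yrr1Y and -0.94 ± 0.15 with Yrr1S in 4NQO.

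The scaffold eIF4G, which ties the cap-binding protein to eIF4A and to the poly(A)-binding protein, has the genes TIF4631 and TIF4632. In glycerol TIF4631 had 66.6 and 52.5 CPM with Yrr1IE, 91.1 and 98.6 with Yrr1Y, and 117 and 103 with Yrr1S. In 4NQO TIF4631 had 252 and 190.1 CPM with Yrr1IE, 201 and 244 with Yrr1Y, and 229.6 and 266 with Yrr1S. In YPD TIF4631 had 288 and 380.1 CPM with Yrr1IE, 362 and 385 with Yrr1Y, and 426 and 433 with Yrr1S. TIF4631 separated the media, with the Yrr1IE libraries lowest in glycerol. In glycerol TIF4632 had 52.1 and 30.4 CPM with Yrr1IE, 34.7 and 33.2 with Yrr1Y, and 39.3 and 37.3 with Yrr1S. In 4NQO TIF4632 had 76.2 and 57.3 CPM with Yrr1IE, 42.7 and 56.9 with Yrr1Y, and 72.8 and 81.9 with Yrr1S. In YPD TIF4632 had 57.0 and 56.2 CPM with Yrr1IE, 76.5 and 66.7 with Yrr1Y, and 61.3 and 79.8 with Yrr1S. For TIF4632, 4NQO overlapped both other media. In glycerol the log2 fold changes of TIF4631 were -2.50 ± 0.18 with Yrr1IE, -1.98 ± 0.16 with Yrr1Y and -1.97 ± 0.16 with Yrr1S. Those of TIF4632 were -0.49 ± 0.23 with Yrr1IE, -1.08 ± 0.22 with Yrr1Y and -0.89 ± 0.22 with Yrr1S, and the one with Yrr1IE did not pass the test (adjusted p = 0.061, edgeR).

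TIF1 and TIF2 encode the helicase eIF4A itself. In glycerol TIF1 had 110.3 and 112 CPM with Yrr1IE, 187 and 199 with Yrr1Y, and 176 and 158 with Yrr1S. In 4NQO TIF1 had 378 and 345 CPM with Yrr1IE, 362 and 377 with Yrr1Y, and 354 and 344 with Yrr1S. In YPD TIF1 had 514 and 623 CPM with Yrr1IE, 614 and 546 with Yrr1Y, and 560.0 and 595 with Yrr1S. The media did not overlap, and in glycerol the Yrr1IE libraries of TIF1 were lowest. In glycerol TIF2 had 255 and 215 CPM with Yrr1IE, 227 and 254 with Yrr1Y, and 229.6 and 196 with Yrr1S. In 4NQO TIF2 had 431 and 389 CPM with Yrr1IE, 423 and 467 with Yrr1Y, and 393 and 431 with Yrr1S. In YPD TIF2 had 636 and 629 CPM with Yrr1IE, 773 and 720.0 with Yrr1Y, and 712 and 823 with Yrr1S. For TIF2 the alleles overlapped in glycerol. The sum of both was lower in glycerol, with log2 fold changes of -1.83 ± 0.13 with Yrr1IE, -1.72 ± 0.13 with Yrr1Y and -1.95 ± 0.13 with Yrr1S.

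The remaining members of this group are CDC33, the cap-binding protein eIF4E, CAF20, a repressor that binds eIF4E, and PAB1, the poly(A)-binding protein. Their log2 fold changes in glycerol were -1.73 for CDC33, -1.87 for CAF20 and -1.40 for PAB1 with Yrr1IE, -0.90 for CDC33, -1.31 for CAF20 and -0.84 for PAB1 with Yrr1Y, and -1.34 for CDC33, -1.57 for CAF20 and -1.09 for PAB1 with Yrr1S. Each of these 9 changes passed the test. In 4NQO CDC33 fell with Yrr1IE (-0.45) and Yrr1S (-0.86) and gave -0.33 with Yrr1Y, which did not pass the test. The CDC33 call with Yrr1IE was lost in some alternative.

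All 4 genes of the start site factors were lower in glycerol with each allele, and 3, 2 and 4 in 4NQO with Yrr1IE, Yrr1Y and Yrr1S. TIF5 encodes eIF5, which makes eIF2 hydrolyse its GTP at the start codon. In glycerol TIF5 had 58.3 and 69.0 CPM with Yrr1IE, 162 and 165 with Yrr1Y, and 130.3 and 143 with Yrr1S. In 4NQO TIF5 had 339 and 265 CPM with Yrr1IE, 317 and 310.2 with Yrr1Y, and 272 and 302 with Yrr1S. In YPD TIF5 had 358 and 356 CPM with Yrr1IE, 462 and 438 with Yrr1Y, and 448 and 475 with Yrr1S. FUN12 encodes eIF5B, which joins the subunits. In glycerol FUN12 had 78.4 and 63.3 CPM with Yrr1IE, 90.7 and 103 with Yrr1Y, and 129 and 116 with Yrr1S. In 4NQO FUN12 had 182 and 294 CPM with Yrr1IE, 251 and 279 with Yrr1Y, and 284 and 309 with Yrr1S. In YPD FUN12 had 358 and 390.4 CPM with Yrr1IE, 379.8 and 423 with Yrr1Y, and 452 and 463 with Yrr1S. For TIF5 and FUN12 no library of one medium reached those of another, and Yrr1IE was lowest in glycerol. The log2 fold changes in glycerol of TIF5 were -2.48 ± 0.15 with Yrr1IE, -1.46 ± 0.13 with Yrr1Y and -1.75 ± 0.14 with Yrr1S. Those of FUN12 were -2.41 ± 0.18 with Yrr1IE, -2.05 ± 0.17 with Yrr1Y and -1.90 ± 0.16 with Yrr1S. TIF11 (eIF1A) had log2 fold changes of -2.11, -1.18 and -1.64 with Yrr1IE, Yrr1Y and Yrr1S, and SUI1 (eIF1, which guards start codon choice) had -0.66, -0.51 and -0.95.

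All 6 genes of eIF3, the large complex that holds the small subunit ready, were lower in glycerol with each allele, and 5, 4 and 6 in 4NQO with Yrr1IE, Yrr1Y and Yrr1S. NIP1 encodes the core subunit eIF3c. In glycerol NIP1 had 51.4 and 54.6 CPM with Yrr1IE, 144 and 149 with Yrr1Y, and 148 and 118 with Yrr1S. In 4NQO NIP1 had 211 and 255 CPM with Yrr1IE, 237 and 236 with Yrr1Y, and 239 and 257 with Yrr1S. In YPD NIP1 had 332 and 346 CPM with Yrr1IE, 320.1 and 389.7 with Yrr1Y, and 325 and 369 with Yrr1S. TIF35 encodes eIF3g. In glycerol TIF35 had 35.4 and 39.6 CPM with Yrr1IE, 86.2 and 68.9 with Yrr1Y, and 78.2 and 64.8 with Yrr1S. In 4NQO TIF35 had 142 and 139 CPM with Yrr1IE, 157 and 136 with Yrr1Y, and 136 and 151 with Yrr1S. In YPD TIF35 had 249.6 and 218 CPM with Yrr1IE, 164 and 201 with Yrr1Y, and 261 and 305 with Yrr1S. Both genes separated the media, and in glycerol their Yrr1IE libraries lay below all others. NIP1 had log2 fold changes in glycerol of -2.67 ± 0.16 with Yrr1IE, -1.28 ± 0.14 with Yrr1Y and -1.39 ± 0.14 with Yrr1S. TIF35 had -2.63 ± 0.18 with Yrr1IE, -1.23 ± 0.16 with Yrr1Y and -1.99 ± 0.16 with Yrr1S. For the subunits RPG1 (eIF3a), PRT1 (eIF3b), TIF34 (eIF3i) and HCR1 (eIF3j), the log2 fold changes in glycerol ran from -2.61 to -0.82 over the 3 alleles, with the smallest change in HCR1 with Yrr1IE and the largest in RPG1 with Yrr1IE.

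Of the 8 genes of eIF2 and eIF2B, 7, 8 and 8 were lower in glycerol with Yrr1IE, Yrr1Y and Yrr1S. In 4NQO 3, 1 and 7 were lower. eIF2 delivers the initiator tRNA, and phosphorylation of its alpha subunit, the SUI2 product, blocks eIF2B in the general amino acid control of yeast. In glycerol SUI2 had 59.7 and 65.4 CPM with Yrr1IE, 138 and 166 with Yrr1Y, and 126 and 115 with Yrr1S. In 4NQO SUI2 had 211 and 208 CPM with Yrr1IE, 252 and 205 with Yrr1Y, and 187 and 170.3 with Yrr1S. In YPD SUI2 had 305 and 309 CPM with Yrr1IE, 277 and 303 with Yrr1Y, and 309 and 316 with Yrr1S. GCD11 encodes the GTP-binding gamma subunit of eIF2. In glycerol GCD11 had 138 and 149 CPM with Yrr1IE, 167 and 184 with Yrr1Y, and 178 and 162 with Yrr1S. In 4NQO GCD11 had 290.4 and 342 CPM with Yrr1IE, 326 and 299.7 with Yrr1Y, and 326 and 280.1 with Yrr1S. In YPD GCD11 had 466 and 466 CPM with Yrr1IE, 522 and 473 with Yrr1Y, and 537 and 563 with Yrr1S. Both genes separated the media, and their Yrr1IE libraries were lowest in glycerol. In glycerol the log2 fold changes of SUI2 were -2.29 ± 0.15 with Yrr1IE, -0.93 ± 0.14 with Yrr1Y and -1.38 ± 0.14 with Yrr1S. For GCD11 they were -1.70 ± 0.14 with Yrr1IE, -1.50 ± 0.13 with Yrr1Y and -1.69 ± 0.13 with Yrr1S.

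GCD6, the gene of the catalytic subunit eIF2B epsilon, departed from this. In glycerol GCD6 had 95.8 and 87.0 CPM with Yrr1IE, 65.3 and 62.0 with Yrr1Y, and 57.2 and 76.8 with Yrr1S. In 4NQO GCD6 had 130.3 and 119 CPM with Yrr1IE, 94.7 and 114 with Yrr1Y, and 90.7 and 93.5 with Yrr1S. In YPD GCD6 had 113 and 118 CPM with Yrr1IE, 105 and 119 with Yrr1Y, and 128 and 136 with Yrr1S. In glycerol its Yrr1IE libraries were the highest, and 1 of them lay within the 4NQO range. Over YPD, GCD6 had log2 fold changes of -0.34 ± 0.16 with Yrr1IE, -0.81 ± 0.16 with Yrr1Y and -0.98 ± 0.16 with Yrr1S in glycerol, and the one with Yrr1IE did not pass the test (adjusted p = 0.064, edgeR). The other eIF2B genes, GCN3, GCD7, GCD1 and GCD2 (alpha to delta), and SUI3 (eIF2 beta) were lower in glycerol with each allele, at -1.65 to -0.64 on the log2 scale.

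Both termination genes were lower in every response to a medium. SUP45 encodes eRF1, which reads the stop codon. In glycerol SUP45 had 122 and 151 CPM with Yrr1IE, 207 and 187 with Yrr1Y, and 179 and 166 with Yrr1S. In 4NQO SUP45 had 305 and 278 CPM with Yrr1IE, 336 and 344 with Yrr1Y, and 311 and 326 with Yrr1S. In YPD SUP45 had 441 and 463 CPM with Yrr1IE, 515 and 609 with Yrr1Y, and 523 and 564 with Yrr1S. SUP35 encodes the GTPase eRF3, known in yeast also as the protein of the PSI prion. In glycerol SUP35 had 84.0 and 79.8 CPM with Yrr1IE, 97.2 and 110.2 with Yrr1Y, and 128 and 119 with Yrr1S. In 4NQO SUP35 had 172 and 167 CPM with Yrr1IE, 174 and 144 with Yrr1Y, and 179.7 and 172 with Yrr1S. In YPD SUP35 had 250.4 and 227 CPM with Yrr1IE, 233 and 257 with Yrr1Y, and 286 and 255 with Yrr1S. The media did not overlap for either gene, and in glycerol Yrr1IE was lowest. In glycerol the log2 fold changes were -1.72 ± 0.14 with Yrr1IE, -1.51 ± 0.13 with Yrr1Y and -1.65 ± 0.13 with Yrr1S for SUP45. They were -1.55 ± 0.15 with Yrr1IE, -1.24 ± 0.14 with Yrr1Y and -1.13 ± 0.14 with Yrr1S for SUP35.

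STM1 encodes a ribosome-bound protein known from the idle ribosomes of starved yeast. In glycerol STM1 had 187 and 209 CPM with Yrr1IE, 537 and 530.1 with Yrr1Y, and 574 and 583 with Yrr1S. In 4NQO STM1 had 1136 and 948 CPM with Yrr1IE, 1292 and 1023 with Yrr1Y, and 1082 and 1071 with Yrr1S. In YPD STM1 had 1121 and 1253 CPM with Yrr1IE, 1352 and 1417 with Yrr1Y, and 1484 and 1801 with Yrr1S. Glycerol was lowest, with Yrr1IE far below the other alleles, while 4NQO and YPD overlapped. STM1 had log2 fold changes in glycerol of -2.58 ± 0.14 with Yrr1IE, -1.38 ± 0.13 with Yrr1Y and -1.51 ± 0.13 with Yrr1S, and in 4NQO its fall of 0.61 ± 0.13 with Yrr1S passed the test, while -0.19 ± 0.13 with Yrr1IE and -0.26 ± 0.13 with Yrr1Y did not.

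Between the alleles the factor genes differed little in YPD. Over Yrr1S, Yrr1IE had 0 higher and 4 lower genes, against 7.28% and 4.41% of all loci: RPG1 (-0.50 ± 0.14), HCR1 (-0.49 ± 0.14), STM1 (-0.47 ± 0.13) and PRT1 (-0.42 ± 0.12), as log2 fold changes with SE. Over Yrr1Y, Yrr1IE had 2 higher, HEF3 (1.23 ± 0.38) and SUI1 (0.44 ± 0.14), and 1 lower, RPG1 (-0.42 ± 0.14), against 7.42% and 6.73%. Yrr1Y over Yrr1S had 0 higher and 1 lower, TIF35 (-0.63 ± 0.15), against 0.728% and 0.156%. Without 1 or another library each of these 8 calls was lost, and TIF35 was lost without either Yrr1Y library or without the Yrr1S library S4. Yrr1IE over Yrr1S had 0 calls without S4 or without the Yrr1IE library S5, and 2 without S3 or without S6. Yrr1IE over Yrr1Y had 0 calls without S1, where HEF3 was at 0.74, and 1 without S5, where RPG1 was at -0.24, or without S6.

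In 4NQO no member was called between alleles by edgeR or by DESeq2. For Yrr1IE over Yrr1S 0 were higher and 0 lower (2.01% and 2.5% of all loci). For Yrr1IE over Yrr1Y it was 0 and 0 (2.03% and 2.03%), and for Yrr1Y over Yrr1S 0 and 0 (0.0173% and 0.0347%). In the same order, 2, 0 and 3 members had an unadjusted p under 0.05 in edgeR, against 16.5%, 15.6% and 6.38% of all loci.

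In glycerol, Yrr1IE stood apart. Over Yrr1S, 23 of the 38 genes were lower and 2 higher, against 27.6% and 20.7% of all loci, with a median log2 fold change of -0.49 against -0.11 over all loci. Over Yrr1Y, 24 were lower and 1 higher, against 26.1% and 17.1%, with a median of -0.56. Yrr1Y over Yrr1S gave 1 higher, YEF3 (0.68 ± 0.15), and 0 lower, against 2.98% and 0.763%, and the call was lost without either Yrr1Y library (S13, S14) or without the Yrr1S library S16, where YEF3 was at 0.40. The comparisons of Yrr1IE with Yrr1S and with Yrr1Y share the Yrr1IE libraries.

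The largest differences of Yrr1IE over Yrr1S were those of HEF3 (-2.19), STM1 (-1.54), EFB1 (-1.52), NIP1 (-1.32), TEF4 (-1.22), TIF5 (-1.09), SUI2 (-0.94), TIF35 (-0.92), RPG1 (-0.90) and TIF4631 (-0.89). Higher were SUI1 (0.53) and GCD6 (0.44), and both calls were lost with 1 library left out, SUI1 at 0.28 without S18 (adjusted p = 0.17, edgeR) and GCD6 at 0.25 without S15 (adjusted p = 0.33, edgeR). Over Yrr1Y the largest were those of HEF3 (-1.95), EFB1 (-1.68), YEF3 (-1.55), NIP1 (-1.46) and STM1 (-1.43). Next came TEF4 (-1.41), TIF5 (-1.35), SUI2 (-1.28), TIF35 (-1.04) and RPG1 (-0.90). The gene that was higher over Yrr1Y was GCD6 (0.52), and its call was also lost with 1 library left out, at 0.45 without S17. Genes from each role were among those lower, and eIF2B and eIF1 supplied those higher. By role, Yrr1IE over Yrr1S had 5 of 8 lower in eIF4F and its partners, 3 of 4 start site genes lower and 1 higher, 5 of 6 eIF3 genes lower, 2 of 8 eIF2 and eIF2B genes lower and 1 higher, 6 of 9 elongation genes lower, 1 of 2 termination genes lower, and STM1 lower.

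**Figure D4:**
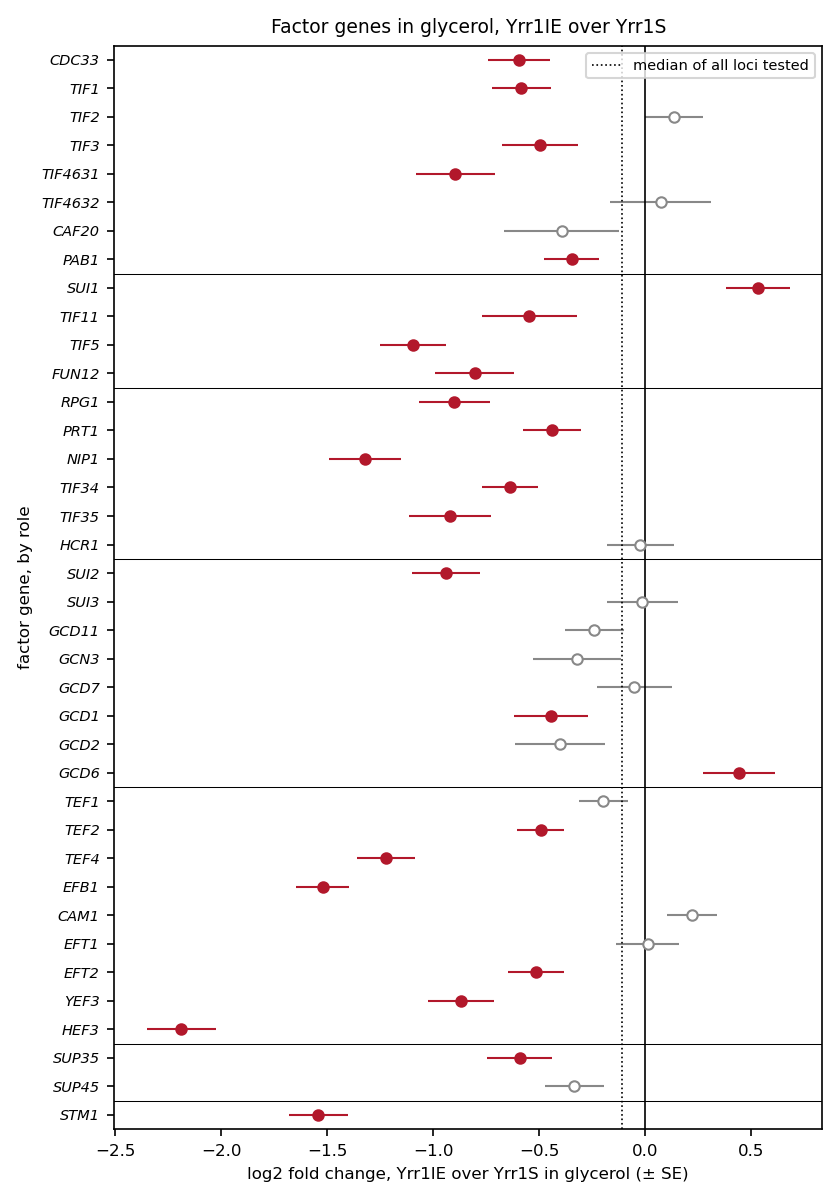
log2 fold change of Yrr1IE over Yrr1S in glycerol (horizontal axis) for the 38 genes, by role, with bars of 1 SE to each side and filled points at an adjusted p under 0.05. Filled points lie left of 0 for 23 genes, with HEF3 farthest at -2.19, and right of 0 for GCD6 and SUI1.

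Within the pairs of identical protein, one copy each passed this test. TIF1 gave -0.58 ± 0.14 and TIF2 0.14 ± 0.14, and their sum -0.06 ± 0.13 (adjusted p = 0.74, edgeR). EFT2 gave -0.51 ± 0.13 and EFT1 0.01 ± 0.15, with a sum of -0.22 ± 0.13 (adjusted p = 0.17, edgeR). TEF2 gave -0.49 ± 0.11 and TEF1 -0.20 ± 0.12, with a sum of -0.30 ± 0.11 (adjusted p = 0.031, edgeR). Whether the copies differ was not tested, and with shared reads the sums are the firmer values.

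The difference of the glycerol response itself, Yrr1IE minus Yrr1S, was called for 11 members, 10 of them negative and 1 positive, against 31.4% of all loci called, so the share of members called was near that of all loci. The negative ones were HEF3 (-2.76), EFB1 (-1.30), NIP1 (-1.29), STM1 (-1.07), SUI2 (-0.91), TEF4 (-0.88), TIF5 (-0.72), YEF3 (-0.65), TIF35 (-0.64) and TIF1 (-0.56), as log2 differences. For TIF1 the sum with its copy TIF2 went the other way, at 0.11 ± 0.18 (adjusted p = 0.68, edgeR). GCD6 was the positive one, at 0.64 ± 0.23. YEF3 was at -0.30 without S15, -0.37 without S18 and -0.40 without S6, and TIF1 at -0.34 without S6, and none of these passed the test. The median of all loci in this difference was -0.13, which is a shift that all these values carry. For Yrr1Y minus Yrr1S 0 of 38 were called (0.624% of all loci; 7 at an unadjusted p under 0.05 in edgeR), and DESeq2 called YEF3 only. In the Yrr1IE minus Yrr1S difference, NIP1, SUI2, EFB1 and STM1 passed in every alternative. TEF4 and HEF3 passed in each alternative that scored them, but the summed pairs held only their sums. TEF4 summed with CAM1 gave 0.06 ± 0.18 (adjusted p = 0.84, edgeR), with no call and the other sign. CAM1 was the larger part of that sum with Yrr1IE in glycerol (means of 716 CPM for CAM1 and 267 for TEF4). TEF4 and CAM1 shared no 75-base window, so their sum is a value of the pair and no check of TEF4 alone. HEF3 summed with YEF3 gave -0.79 ± 0.21 (adjusted p = 0.0036, edgeR).

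The study also set Yrr1IE in YPD beside Yrr1Y in 4NQO. Here 22 members were higher and 1 lower, against 11.7% and 12.6% of all loci. The largest were those of CAF20 (0.81), TIF35 (0.68), TIF11 (0.67), TIF3 (0.63), TIF1 (0.62), SUI1 (0.62), PAB1 (0.62), RPG1 (0.62), EFT1 (0.59) and SUP35 (0.59), and HEF3 (-0.77) was lower. Allele and medium differ together in this comparison, and without the Yrr1IE YPD library S6 13 members were called. TIF11 was at 0.43 without the Yrr1Y 4NQO library S8, which did not pass the test.

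Other genes of protein synthesis moved in glycerol as well. Of 134 tested ribosomal protein genes, 132 were lower with Yrr1IE (median log2 fold change -2.84), 129 with Yrr1Y (-1.68) and 129 with Yrr1S (-1.89), and 0, 0 and 1 were higher. Of 55 genes for ribosome assembly, 54, 45 and 53 were lower, with medians of -2.96, -1.32 and -1.63. All 21 tested cytosolic tRNA synthetase genes were lower with each allele (-1.89, -1.63 and -1.71). With Yrr1S, the largest falls were those of MES1 (-2.58), WRS1 (-2.36), KRS1 (-2.34) and ILS1 (-2.22), the enzymes for methionine, tryptophan, lysine and isoleucine. The medians of the 38 factor genes, at -1.74, -1.27 and -1.55, lay above those of these 3 lists.

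Among 47 other tested cytosolic factors, 34, 29 and 30 were lower and 4, 3 and 2 higher with Yrr1IE, Yrr1Y and Yrr1S. With Yrr1S the largest changes were those of ANB1 (-3.52), the form of eIF5A made at low oxygen, YNL024C (-2.96), DBP1 (2.82), a helicase that is a paralogue of DED1, and SRO9 (-2.81). Of 21 mitochondrial factors, 6, 7 and 8 were higher and 3, 0 and 0 lower, and the counts higher were close to the 33.2%, 28.5% and 29.1% of all loci. The largest rises with Yrr1S were those of FMT1 (1.91), which formylates the initiator methionine, MEF2 (1.58), AIM23 (1.17) and GUF1 (1.12). With Yrr1IE, MEF2 (1.01) and AIM23 (1.48) were also higher, while GUF1 was lower at -1.38 (adjusted p = 0.021, edgeR).

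Within glycerol, Yrr1IE over Yrr1S had 127 of 134 ribosomal protein genes lower (median -1.18) and 40 of 55 assembly genes (-1.32), against 23 of the 38 factor genes (-0.49). The lists were compared by counts and medians only.

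In the 500 bases upstream of the start codon (R64), the Rap1 core ACCCNNACA, searched on both strands, was found for 2 of the 38 genes (5.26%), TEF2 and TEF4, against 39.4% of ribosomal protein genes and 5.46% of all 6006 genes searched. The PAC element GATGAG was found for 13 (34.2%, against 28.2% of all genes), and the stress response element AGGGG for 11 (28.9%, against 34.1%). The Zap1 core CCTTNAAGG was found for 2 (5.26%, against 0.833%), TEF2 and EFT1, and the TATA box core TATAAA for 18 (47.4%, against 60.5%). A match to these letters is a description of the sequence and not a site.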

How the data were processed

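RNA was sequenced as unstranded paired-end libraries on a MiSeq. The submitters' processing notes name CASAVA 1.7, TopHat2 2.0.12, DESeq2 1.8.1 and the builds R64 and sacCer3. The authors deposited whole-number read counts per gene, which were used for all tests, and FPKM per gene from the authors' own run, which were used for levels between genes and for gene names. Their tables of fold changes and p-values between conditions were not used. Because the libraries are unstranded, overlapping and antisense genes share reads. Reads matching ribosomal and transfer RNA genes had been removed, and counts were made with Rsubread, with parameters left at their defaults unless stated. How that treated reads of near-identical copies is not spelled out.

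All 18 libraries entered 1 edgeR 4.0.16 quasi-likelihood fit (limma 3.58.1, R 4.3.3) with 9 conditions, TMM scaling and the filterByExpr filter (5766 of 6713 loci). The 23 comparisons were contrasts, each with Benjamini-Hochberg adjustment over all loci and a threshold of 0.05. CPM values are scaled by TMM. The replicate libraries came from duplicated cultures, 2 a condition. The spread behind each p-value was estimated per gene over all 9 conditions together and drawn towards that of other genes. It is not the spread of the compared conditions alone, and the division of cultures between media was not modelled. Alternatives were DESeq2 size factors, the DESeq2 1.42.0 Wald test, no filter beyond 1 count, a fit of the compared libraries only, summed gene pairs, and each library left out. The procedure was also run on simulated counts in which all loci had the same dispersion and few loci changed. That setting is simpler than these data, and no result here rests on it. Sequences were read from RefSeq R64, whose locus tags match those of the files, with Python 3.11.15 and Biopython 1.88, and figures were drawn with matplotlib 3.10.9.

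Members and gene lists were chosen with earlier results of these data known. Named were, in each response to a medium, up to 10 called members per direction by absolute log2 fold change, in each comparison between alleles and each difference of responses all called members up to 10 per direction, and in the other lists up to 4. Every library is given for members among the largest changes of each role, for those called in a difference of responses and for the gene pairs. RPG1, also among the largest changes of eIF3, is given by fold change only.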

Additional observations from a re-analysis of the deposited data

Results flagged for a closer look

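The response to glycerol (glycerol over YPD) differed between Yrr1IE and Yrr1S for 11 of the 38 genes, a share close to the 31.4% of all loci that were called, by the test of the difference itself (edgeR, Benjamini-Hochberg adjustment over 5766 loci, log2 differences, 2 libraries per condition). HEF3 rose less with Yrr1IE, with a difference of -2.76 (adjusted p = 4.82e-07). Genes that fell more were EFB1 at -1.30 (adjusted p = 5.56e-07), NIP1 at -1.29 (adjusted p = 2.96e-05), STM1 at -1.07 (adjusted p = 5.31e-05), SUI2 at -0.91 (adjusted p = 0.001), TEF4 at -0.88 (adjusted p = 4.69e-04), TIF5 at -0.72 (adjusted p = 0.0064), YEF3 at -0.65 (adjusted p = 0.022), TIF35 at -0.64 (adjusted p = 0.043) and TIF1 at -0.56 (adjusted p = 0.022), all from edgeR. GCD6 fell less, at 0.64 (adjusted p = 0.032, edgeR). HEF3 and TEF4 passed in each alternative that scored them, but the summed pairs held only their sums. TEF4 summed with CAM1 gave 0.06 (adjusted p = 0.84, edgeR), with no call and the other sign. TEF4 and CAM1 shared no 75-base window, so their sum is a value of the pair and no check of TEF4 alone. HEF3 summed with YEF3 gave -0.79 (adjusted p = 0.0036, edgeR). EFB1, NIP1, STM1 and SUI2 passed in every alternative. The calls of TIF5, YEF3, TIF35, TIF1 and GCD6 were each lost in some, with YEF3 at -0.30 (adjusted p = 0.30, edgeR) without S15, and TIF1 summed with its near-identical copy TIF2 gave 0.11 (adjusted p = 0.68, edgeR), with no call and the other sign. All 4 conditions' libraries enter each value, and the Yrr1IE libraries also hold 0 to 2 SNF1 counts, so the protein change and the missing SNF1 counts cannot be told apart. Groups of 2 libraries allow no test of outlying samples.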

How the results depend on the processing

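All member calls of glycerol over YPD (36, 37 and 37 with Yrr1IE, Yrr1Y and Yrr1S) passed in every alternative that scored the member. So did 16 of 24, 16 of 21 and 29 of 35 calls of 4NQO over YPD. In glycerol 17 of 25 calls each of Yrr1IE over Yrr1S and over Yrr1Y did so. The summed pairs, with YEF3 and HEF3 and TEF4 and CAM1 among them, gave no value for a single copy. With pairs summed, 0 were higher in glycerol over YPD with each allele. The rises of HEF3 and CAM1 were therefore not put to that alternative. No single member changed direction. In the Yrr1IE minus Yrr1S glycerol difference, TIF1 summed with TIF2 (0.11) and TEF4 with CAM1 (0.06) had the other sign. TEF4 and CAM1, TIF4631 and TIF4632, and YEF3 and HEF3 shared no 75-base window. Their sums are values of the pairs and no check on shared reads. With pairs summed in glycerol, Yrr1IE over Yrr1S gave no call for TIF1 with TIF2 (-0.06), EFT1 with EFT2 (-0.22) or TEF4 with CAM1 (-0.25). Over Yrr1Y, no call came for TIF1 with TIF2 (-0.24), EFT1 with EFT2 (-0.32) or TIF4631 with TIF4632 (-0.28). In each comparison the other sums were called. The number of calls changed by over 1.5 times as follows, with causes not tested. Yrr1IE over Yrr1Y in YPD gave 3, against 6 in a fit of the compared libraries only and 1 with gene pairs summed. Yrr1Y over Yrr1S in glycerol gave 1, against 2 with DESeq2. The Yrr1IE minus Yrr1S difference in 4NQO gave 0, against 1 with DESeq2 and 1 with the compared libraries only. The Yrr1Y minus Yrr1S difference in glycerol gave 0, against 1 without the filter and 1 with DESeq2. With 1 library left out, the calls ranged from 0 to 1 for Yrr1Y over Yrr1S in YPD, 0 to 2 for Yrr1IE over Yrr1S in YPD, 0 to 2 for Yrr1IE over Yrr1Y in YPD, 0 to 1 for Yrr1IE over Yrr1S in 4NQO (1 without S12), 0 to 2 for Yrr1Y over Yrr1S in glycerol, 13 to 20 for Yrr1IE in YPD over Yrr1Y in 4NQO, 0 to 1 for the Yrr1Y minus Yrr1S difference in glycerol (1 without S15), and 7 to 12 for the Yrr1IE minus Yrr1S difference. A lone remaining library was assumed to vary like the other groups. No paired analysis was possible because each library carries its own number and the labels do not say which share a culture. At 5 to 33 counts, HEF3 in YPD is the value most limited by depth.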
